A study of Rattus norvegicus with 2 samples.

Results

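Interleukins and the tumour necrosis factor (TNF) family are the signal proteins through which cells report injury and infection to each other, and 110 genes that encode them, their receptors or TNF-induced proteins are described here out of 16592 genes with a name on the arrays. They were chosen by symbol, as every gene whose symbol in the platform annotation starts with Il and a digit, Tnfsf, Tnfrsf or Tnfaip, or is Tnf. Of the 110 genes, 78 carry an interleukin symbol and 32 a TNF symbol. By role there were 35 interleukin ligands, 37 interleukin receptor chains, 9 TNF family ligands, 17 TNF receptor family members, 7 antagonists or decoys and 5 TNF-induced proteins.

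Interleukins bind pairs of receptor chains at the cell surface. Receptors of the IL-1 and IL-17 families use adaptor proteins that activate the transcription factor NF-kB, while the receptors of IL-6 and most other interleukins use Janus kinases (JAK) and STAT transcription factors. TNF family ligands are made as membrane proteins that can be released by proteases. Many of their receptors activate NF-kB, and those that carry a death domain can also start cell death. In the heart, TNF, IL-1 and IL-6 are known for lowering contraction and for their part in the response to infarction, and IL-33 and its receptor ST2 for signalling between fibroblasts and muscle cells.

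The cells were neonatal rat ventricular myocytes, the contracting cells of the ventricle, taken from pups of 1 to 2 days. They recovered for 24 hours in medium with 10% fetal bovine serum and were moved to low-serum medium with 0.5x Nutridoma, a serum substitute. Both groups were transduced with an adenoviral vector for a short hairpin RNA (shRNA), directed against Mef2d, a muscle transcription factor, in one group and against lacZ, a bacterial gene used as the negative control, in the other. RNA was harvested 3 days later and measured on 1 Affymetrix array per group. The arrays hold pooled RNA, of 6 biological replicates in the design text, whereas the extraction protocol counts 3 biological replicates per condition and speaks of myotubes.

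With 1 array per group there is no replicate error, no test was possible, and each difference compares these arrays and not the conditions. Levels are log2 values made by the authors with RMA, which corrects background, equalises the arrays and summarises probe sets, and they carry no detection call, so that a low level cannot be told from background. Apart from the level filter and level bins described below, levels of different genes were not ranked against each other, since probe sets differ in brightness. For the same reason, whether a gene passes the filter depends on its probe set as well as on its RNA. Where a pair of levels is given, the first is from the array labelled lacZ shRNA and the second from the array labelled Mef2d shRNA, and a difference is the Mef2d-labelled array minus the lacZ-labelled array on the log2 scale.

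The targeted gene went against the label. Mef2d had levels of 8.22 and 8.94, 1.64-fold higher on the Mef2d-labelled array, so the arrays are named by their labels throughout, and an exchange of the labels would invert each direction given here. Cardiomyocyte markers were measured on both arrays, with levels of 12.12 and 12.00 for the troponin gene Tnnt2 and 12.57 and 12.54 for the natriuretic peptide gene Nppa. All 10 markers of the cardiomyocyte list passed the level filter, from Myh6 at -0.46 and Tnnt2 at -0.12 to Tnni3 at 0.36 and Myh7 at 0.39, with a median of 0.020. All 10 fibroblast markers passed it too, from Pdgfra at -0.23 and Lum at -0.21 to Thy1 at 0.053 and Dcn at 0.097, with a median of -0.093. In bulk RNA, fewer cells of a type and less RNA per cell cannot be told apart.

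The level filter kept genes whose mean over both arrays was at or above the 30th percentile of all named genes, a log2 level of 4.85. It was passed by 58 of the 110 genes (52.7%), against 70.0% of all named genes, a figure that the percentile fixes. The share differed by role: 11 of 35 interleukin ligands passed, 21 of 37 interleukin receptor chains, 6 of 9 TNF family ligands, 13 of 17 TNF receptor family members, 3 of 7 antagonists or decoys and 4 of 5 TNF-induced proteins. Interleukin and TNF receptors together passed in 34 of 54 cases (63.0%), under the share of all named genes.

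Promoter sequences of 4 genes are shown because these genes frame the results: Tnf and Il6 are the best known ligands of the families, and Il1rl1 and Il1rap are the receptor chains of the IL-1 family that differed most, in opposite directions. Each sequence is the RefSeq window of GRCr8 from 250 bases before to 50 bases after the gene start, written 5′ to 3′ on the gene's strand. Capitals mark matches, on either strand, to GGGANNNNCC, a form of the NF-kB motif, and to TATAAA, the TATA box. The Tnf window is chr20:3626435-3626734 (plus strand), the Il6 window chr4:5894526-5894825 (minus strand), the Il1rap window chr11:87704293-87704592 (minus strand, the first of 2 starts listed) and the Il1rl1 window chr9:50203388-50203687 (plus strand).
Tnf: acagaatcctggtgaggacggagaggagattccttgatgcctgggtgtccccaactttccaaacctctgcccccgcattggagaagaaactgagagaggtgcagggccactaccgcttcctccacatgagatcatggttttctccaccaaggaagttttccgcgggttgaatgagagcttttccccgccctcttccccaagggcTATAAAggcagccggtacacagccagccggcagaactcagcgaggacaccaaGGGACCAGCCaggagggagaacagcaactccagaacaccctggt
Il6: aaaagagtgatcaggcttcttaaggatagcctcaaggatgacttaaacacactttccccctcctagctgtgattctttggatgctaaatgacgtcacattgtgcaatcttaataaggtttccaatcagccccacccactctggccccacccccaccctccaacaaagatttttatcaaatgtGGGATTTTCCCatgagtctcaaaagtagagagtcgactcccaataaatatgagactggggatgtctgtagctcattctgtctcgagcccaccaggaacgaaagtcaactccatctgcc
Il1rap: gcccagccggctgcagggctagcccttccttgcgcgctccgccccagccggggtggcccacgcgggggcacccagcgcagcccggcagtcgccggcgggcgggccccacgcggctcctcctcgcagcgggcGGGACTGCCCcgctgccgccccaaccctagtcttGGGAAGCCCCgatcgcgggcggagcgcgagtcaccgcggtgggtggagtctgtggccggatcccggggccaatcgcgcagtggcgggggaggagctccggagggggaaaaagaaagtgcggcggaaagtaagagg
Il1rl1: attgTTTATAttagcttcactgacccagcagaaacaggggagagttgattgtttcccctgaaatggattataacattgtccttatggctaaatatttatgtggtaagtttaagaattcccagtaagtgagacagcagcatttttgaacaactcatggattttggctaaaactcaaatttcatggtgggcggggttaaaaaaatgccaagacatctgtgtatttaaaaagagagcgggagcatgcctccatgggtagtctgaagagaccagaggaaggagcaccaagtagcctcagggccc

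The Tnf window held TATAAA 46 bases before the gene start and the NF-kB letters as GGGACCAGCC from base 7 of the transcript. In the Il6 window the motif matched on both strands in overlapping positions, as GGGATTTTCC starting 68 bases before the gene start and as GGATTTTCCC starting 67 bases before it. The Il1rap window held GGGACTGCCC and GGGAAGCCCC, starting 119 and 85 bases before the start, and the Il1rl1 window held TATAAA on the opposite strand only, 246 bases before the start. Of the 86 members with a window in the RefSeq table, 15 (17.4%) held the NF-kB letters on either strand, against 19.6% of 27457 gene windows of the same length. TATAAA was in 17 of the 86 (19.8%), against 14.3% of all, and TGANTCA, the AP-1 motif, in 8 (9.3%), against 7.33% of all. CTANNNNTAG, a form of the MEF2 motif, was in 3 of the 86 windows (3.49%), against 3.83% of all, namely those of Il10ra, Il4 and Tnfrsf17, none of which passed the level filter. A match is a run of letters and not a binding site.

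None of the 58 genes past the level filter differed by 1.5-fold in either direction. Over all 11614 named genes past the filter, 0.844% were at least 1.5-fold higher on the Mef2d-labelled array and 0.534% at least 1.5-fold lower, so 0 of 58 is near that background. At 1.3-fold, none of the 58 was higher, beside 3.51% of all genes, and 1 was lower, Il25, beside 2.47%. The median difference of the 58 genes was -0.021, with 26 above 0 and 32 below, against a median of -0.007 over all genes past the filter. Their differences had a standard deviation over genes of 0.19, against 0.20 for all genes past the filter.

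To set a difference beside the scatter of genes of similar level, the robust standard deviation of differences was taken in 20 level bins, where it ran from 0.11 to 0.21. This scatter holds real differences as well as noise and is not a replicate error. Il1rl1 lay at least 2 of these units above the centre of its bin, 1 of 58 genes beside 5.02% of all genes. Il25 and Il1rap lay as far below, 2 of 58 beside 2.9%. The other members past the filter lay within 2 units, among them Tnf, Tnfrsf1b, Il6ra, Il11ra1, Il27, Il27ra, Tnfrsf22 and Tnfrsf26.

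**Figure D1:**
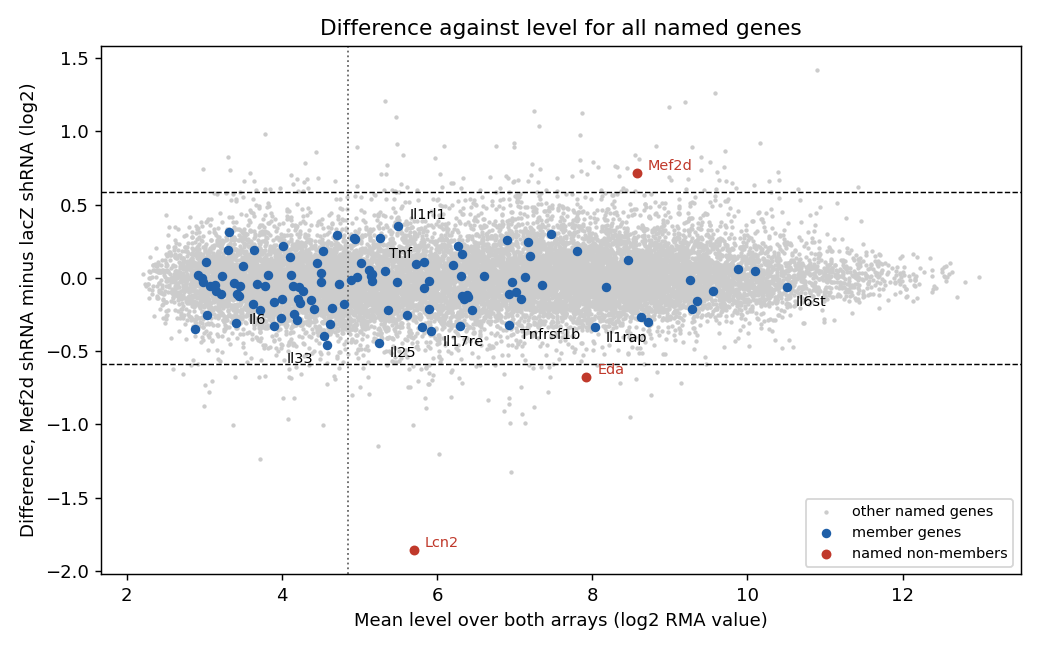
Difference between the arrays (Mef2d shRNA minus lacZ shRNA, log2) against the mean level of both arrays (log2 RMA value) for all named genes in grey and the 110 member genes in blue, with dashed lines at 1.5-fold and a dotted line at the level filter of 4.85. All blue points lie between the dashed lines, while Mef2d, Lcn2 and Eda, in red, lie outside them.

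Receptor chains of the IL-1 family differed in both directions. Il1rl1 encodes ST2, the receptor chain that binds IL-33, and had levels of 5.32 and 5.68, 1.28-fold higher on the Mef2d-labelled array, a difference of 0.36 that 478 of 11614 genes matched or exceeded. Il1rap encodes the accessory chain that both ST2 and the IL-1 receptor need for signalling, and it had levels of 8.20 and 7.86, 1.26-fold lower (-0.34). Il1r1, the signalling receptor of IL-1, differed little, with levels of 9.85 and 9.91 (0.057). The ligand-binding chain of ST2 was thus higher and the shared accessory chain lower, by less than 1.3-fold each.

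Ligands of these receptors were mostly under the filter. Il33, the ligand of ST2, had levels of 4.81 and 4.35 (-0.46). Il1a had levels of 3.21 and 3.40 and Il1b of 4.75 and 4.71, and none of these 3 ligands can be told from background. The antagonist gene Il1rn, whose product occupies the IL-1 receptor without signalling, did pass the filter, at 6.00 and 5.79 (-0.22). Il1r2, a decoy that binds IL-1 without signalling, had levels of 4.77 and 4.46, under the filter.

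The IL-18 branch was flat. Il18bp, a secreted protein that captures IL-18, had levels of 6.98 and 6.95 (-0.029). The ligand Il18 (3.00 and 2.97) and the receptor chains Il18r1 (3.81 and 3.83) and Il18rap (3.27 and 3.16) were under the filter. The IL-36 receptor chain Il1rl2 had levels of 6.31 and 6.32 (0.010). Its ligands Il1f6, Il1f8 and Il1f9, which the reference table calls Il36a, Il36b and Il36g, the antagonist Il1f5 (Il36rn) and the related Il1f10 were all under the filter, with differences from -0.26 for Il1f5 to 0.14 for Il1f9. The accessory-like genes Il1rapl1 and Il1rapl2, which act at synapses, were under it too (-0.056 and 0.002).

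Il6 could not be told from background, while both chains of its receptor passed the filter. Il6 had levels of 3.98 and 3.81, under the filter. Il6st encodes gp130, the signal chain shared by IL-6, IL-11, LIF and oncostatin M, and had levels of 10.54 and 10.48 (-0.066). Il6ra, the chain that binds IL-6, had levels of 6.56 and 6.34 (-0.22). Il11, a gp130 ligand made by cardiac fibroblasts, had levels of 5.90 and 5.88 (-0.022), and its binding chain Il11ra1 had levels of 7.05 and 7.30 (0.25). The binding chains of the pair of cytokines thus differed in opposite directions, by 1.16-fold lower for Il6ra and 1.19-fold higher for Il11ra1. Il31ra, a binding chain for IL-31, was under the filter at 3.48 and 3.37.

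The other gp130 cytokines carry names without the interleukin symbol and 7 of them passed the filter, with a median of -0.022, 3 above 0 and 4 below, and none past 1.5-fold. Osmr, the oncostatin M receptor, had levels of 7.95 and 8.37 and was 1.34-fold higher on the Mef2d-labelled array. Ctf1, cardiotrophin 1, had levels of 5.71 and 6.03 (0.32). Lifr, the receptor of leukemia inhibitory factor, had levels of 6.94 and 6.61 (-0.33) and its ligand gene Lif levels of 7.84 and 7.63 (-0.21). The receptor chains for oncostatin M and leukemia inhibitory factor thus stood on opposite sides of 0.

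IL-17 family genes held the largest difference among members past the filter. Il25, also known as IL-17E, had levels of 5.47 and 5.03 and was 1.36-fold lower on the Mef2d-labelled array (-0.44), a difference that 175 of 11614 genes matched or exceeded in that direction. Its level on that array lay near the filter of 4.85, where background weighs on a fold. The other ligand genes past the filter were Il17b (6.17 and 6.25), Il17c (5.69 and 5.78) and Il17d (7.15 and 7.01), with differences from -0.14 to 0.092. Il17f was under the filter at 4.53 and 4.31.

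Among IL-17 receptor chains, Il17ra, the chain shared by several ligands of the family, had levels of 7.72 and 7.90 (0.18). Il17re, which binds IL-17C, had levels of 6.11 and 5.74 and was 1.29-fold lower (-0.37). Il17rd, a chain that also restrains fibroblast growth factor signalling, had levels of 6.46 and 6.13 (-0.33). Il17rc, the partner chain for IL-17A and IL-17F, had levels of 7.07 and 6.98 (-0.096), and Il17rb, which binds IL-25, was under the filter at 4.32 and 4.15. Of the 8 genes of this family past the filter, 5 (62.5%) were below 0, beside 51.7% of all genes past it. The median of the 8 was -0.12.

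The IL-12, IL-23 and IL-27 group had a median of -0.13 over 5 genes past the filter. Il27, a subunit of IL-27, had levels of 4.79 and 5.07 (0.27), and Il27ra, its receptor chain, levels of 5.98 and 5.64 (-0.34). The ligand was higher and the receptor lower on the Mef2d-labelled array, with the ligand just under the filter level on the lacZ-labelled array. Il23a, the specific subunit of IL-23, had levels of 5.74 and 5.49 (-0.25), and Il12a, the specific subunit of IL-12, levels of 6.46 and 6.33 (-0.13). Il12b, the subunit that both share, was under the filter (4.40 and 4.50). The shared receptor chain Il12rb1 had levels of 5.14 and 5.15 (0.014), while Il12rb2 (4.52 and 4.49) and Il23r (3.09 and 3.04) were under the filter.

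The receptor chains Il4ra and Il3ra passed the filter, while the ligands Il4, Il13 and Il3 did not. Il4ra, the signal chain for IL-4 and IL-13, had levels of 8.76 and 8.49 and was 1.20-fold lower (-0.26). Il4, Il13 and the decoy Il13ra2 were under the filter, with differences of -0.057, 0.033 and -0.31. Il3ra, the binding chain for IL-3, had levels of 7.13 and 7.28 (0.15), and Il3, Il5 and Il5ra were under the filter (0.022, -0.12 and 0.016).

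Il15, a growth factor of natural killer and memory T cells, had levels of 6.45 and 6.33 (-0.12). Il9 had levels of 5.50 and 5.47 and Il9r, its receptor, of 4.96 and 4.97, with differences of -0.027 and 0.007. These 3 were the members of the common gamma chain group past the filter, and each differed by less than 1.1-fold. The chain that gives the group its name, Il2rg, was under the filter at 4.34 and 4.06, as were Il2, Il7, Il21, Il2ra, Il7r and Il21r, with differences from -0.33 for Il7 to 0.11 for Il21.

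In the IL-10 group all 4 genes past the filter differed by less than 1.1-fold. Il10rb, a chain shared by the receptors of IL-10, IL-22 and interferon lambda, had levels of 9.60 and 9.51 (-0.090). Il28ra, the interferon lambda receptor that the reference table calls Ifnlr1, had levels of 7.13 and 7.14 (0.004). Il22ra1 and Il20rb, chains for IL-22 and IL-20, had differences of 0.025 and -0.018. Under the filter were the ligands Il10 (3.06 and 2.71), Il19, Il20, Il22 and Il24, all of them below 0, the receptor chains Il10ra (0.18) and Il20ra (-0.18) and the decoy Il22ra2 (0.017).

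The remaining interleukin symbols stand apart in kind. Il16, a chemoattractant for CD4-bearing cells, had levels of 6.16 and 6.38 (0.22). Il34, a ligand of the macrophage growth factor receptor, was under the filter at 4.74 and 4.34 (-0.40). Il8ra and Il8rb are chemokine receptors that the reference table calls Cxcr1 and Cxcr2. Il8ra had levels of 4.81 and 5.08 (0.27), on both sides of the filter level, and Il8rb of 3.41 and 3.37, under it.

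**Figure D2:**
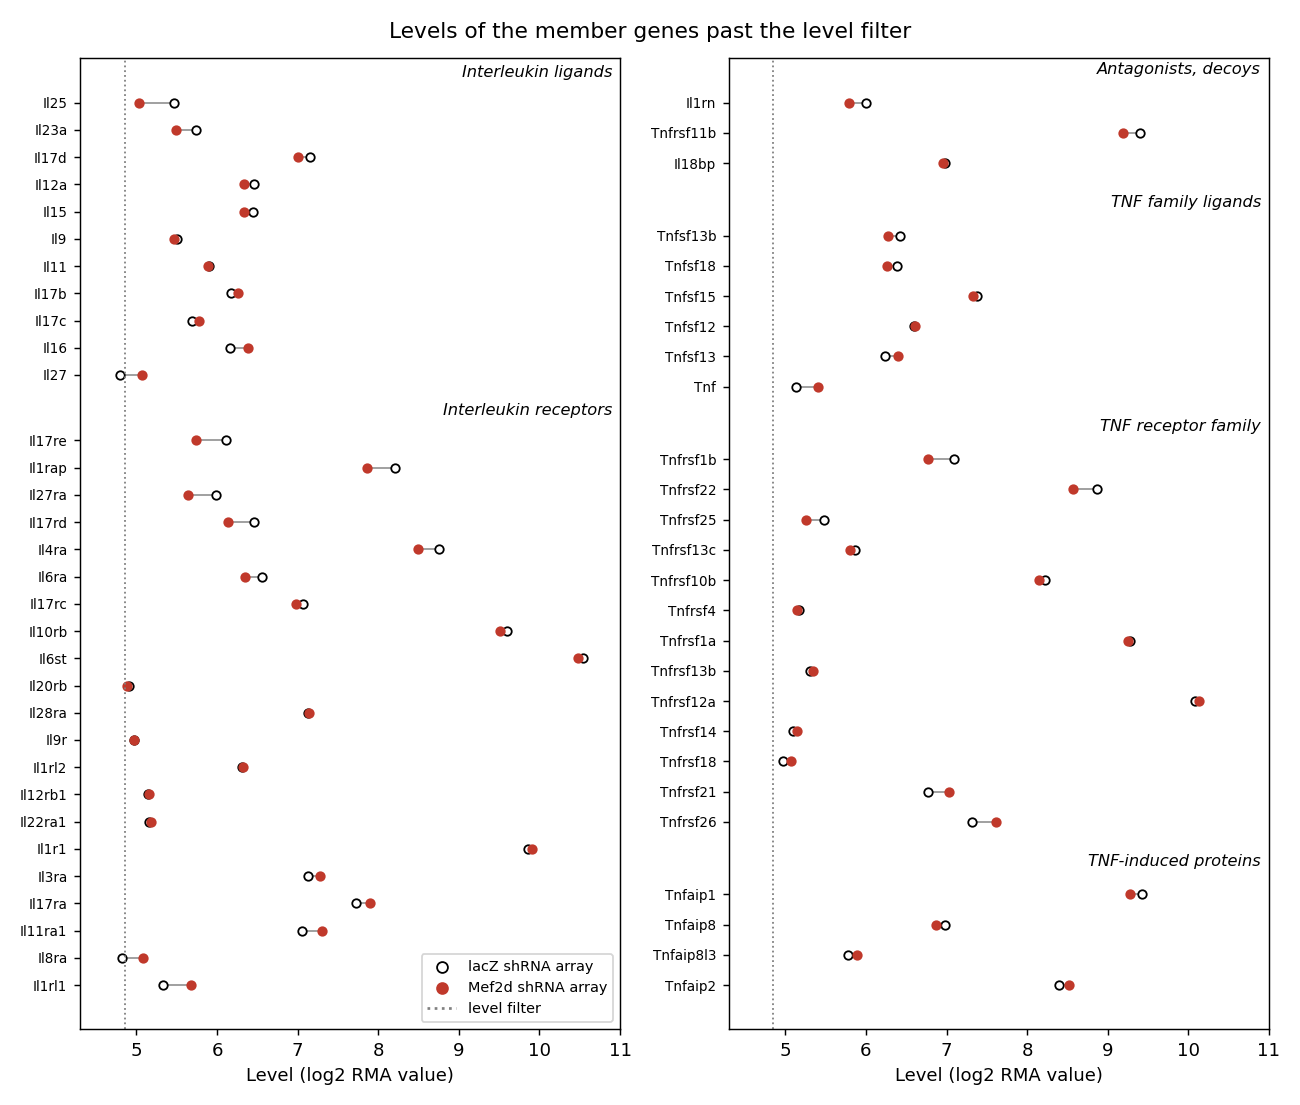
Levels (log2 RMA value) of the 58 member genes past the level filter, grouped by role, with open circles for the array labelled lacZ shRNA, red circles for the array labelled Mef2d shRNA and a dotted line at the filter of 4.85. The circles of a gene lie close together throughout, furthest apart for Il25 (5.47 and 5.03).

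Tnf lay close above the level filter, and both TNF receptor genes passed it. Tnf had levels of 5.13 and 5.40, 1.21-fold higher on the Mef2d-labelled array (0.27). Tnfrsf1a, the widely expressed death domain receptor of TNF, had levels of 9.27 and 9.26 (-0.016). Tnfrsf1b, the receptor without a death domain, had levels of 7.09 and 6.77 and was 1.25-fold lower (-0.32). The ligand and this receptor differed in opposite directions, and Tnfrsf1a was nearly the same on both arrays.

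The TWEAK pair was nearly the same on both arrays. The ligand gene Tnfsf12 had levels of 6.60 and 6.61 (0.011), and its receptor gene Tnfrsf12a, also known as Fn14, which growth factors and injury are known to induce in heart muscle, had levels of 10.08 and 10.13 (0.049). Tnfsf10, which encodes the death ligand TRAIL, was under the filter at 3.16 and 3.48, the largest positive difference among the members under it (0.32). Its death receptor Tnfrsf10b had levels of 8.22 and 8.15 (-0.064). Tnfrsf22, whose mouse counterpart is a decoy receptor for TRAIL, had levels of 8.87 and 8.57 (-0.30), and the related Tnfrsf26 levels of 7.31 and 7.62 (0.30). The last pair, neighbours in the genome, thus stood at similar distances on opposite sides of 0.

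Osteoprotegerin, the soluble decoy of RANKL encoded by Tnfrsf11b, had levels of 9.40 and 9.18 (-0.21). RANKL itself, encoded by Tnfsf11, and its receptor RANK, encoded by Tnfrsf11a, were under the filter at 4.07 and 3.93 and at 4.56 and 4.86. The 3 antagonists or decoys past the filter, Il1rn, Tnfrsf11b and Il18bp, were all below 0, with a median of -0.21, and 3 of the 4 under the filter were below 0 as well, Il22ra2 being the exception. Of all genes, 51.7% of those past the filter and 57.0% of those under it were below 0.

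Both B cell survival factors passed the filter. Tnfsf13b, known as BAFF, had levels of 6.42 and 6.27 (-0.14), and Tnfsf13, known as APRIL, levels of 6.24 and 6.40 (0.16). Their receptors Tnfrsf13b (0.044) and Tnfrsf13c (-0.071) passed, and Tnfrsf17 was under the filter at 3.91 and 4.13. Tnfsf15, a ligand made by endothelial cells, had levels of 7.38 and 7.33 (-0.048) and its death domain receptor Tnfrsf25 levels of 5.48 and 5.26 (-0.22).

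Among costimulatory pairs of T cells, the ligand Tnfsf18 had levels of 6.39 and 6.26 (-0.12) and its receptor Tnfrsf18 levels of 4.97 and 5.07 (0.10). Tnfrsf4, or OX40, had levels of 5.17 and 5.15 (-0.019), and its ligand Tnfsf4 was under the filter at 3.54 and 3.73. Tnfrsf14, the herpesvirus entry mediator, which binds LIGHT, had levels of 5.09 and 5.14 (0.053), while Tnfrsf8 (4.13 and 3.86) and Tnfrsf9 (4.28 and 4.14), the receptors CD30 and 4-1BB, were under the filter. None of these costimulatory genes past the filter differed by 1.1-fold. Tnfrsf21, or death receptor 6, had levels of 6.77 and 7.03 and was 1.19-fold higher (0.26).

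The TNF-induced proteins stayed within 1.12-fold. Tnfaip1, an adaptor of a ubiquitin ligase, had levels of 9.43 and 9.27 (-0.16), and Tnfaip2, a regulator of the exocyst, levels of 8.40 and 8.52 (0.12). Tnfaip8, which binds lipids and limits cell death, had levels of 6.99 and 6.87 (-0.11), and its relatives Tnfaip8l3 and Tnfaip8l2 differed by 0.11 and, under the filter, -0.15.

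**Figure D3:**
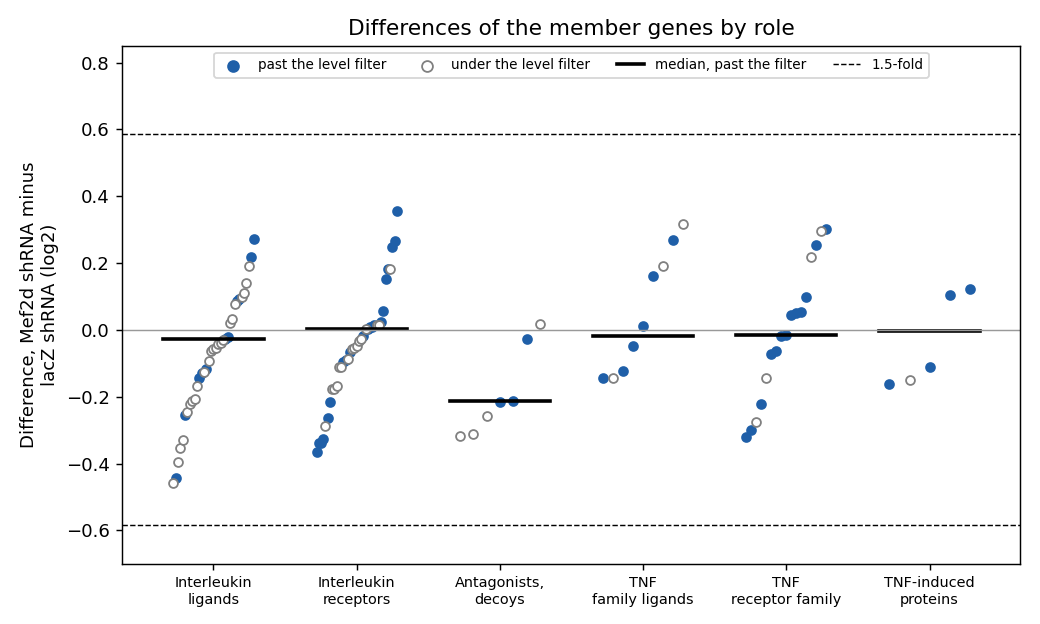
Differences of the 110 member genes (Mef2d shRNA minus lacZ shRNA, log2) by role, with filled points for genes past the level filter, open points for genes under it, bars at the median of the filled points and dashed lines at 1.5-fold. Medians lie near 0 in all roles but the antagonists and decoys (-0.21, 3 genes).

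By role, the medians of genes past the filter were -0.027 for interleukin ligands (4 above 0 and 7 below), 0.004 for interleukin receptor chains (11 above and 10 below), -0.018 for TNF family ligands (3 and 3), -0.016 for TNF receptor family members (6 and 7) and -0.003 for TNF-induced proteins (2 and 2). The 52 genes under the filter had levels between 2.71 and 4.89 and a median difference of -0.061. Of these, 36 (69.2%) were below 0, against 57.0% of the 4978 genes under the filter, whose median was -0.029. None of the 52 differed by 1.5-fold, beside 0.482% higher and 0.542% lower among all genes under the filter. At 1.3-fold none was higher, beside 1.93%, and Il33 and Il34 were lower, 2 of 52 beside 2.65%.

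Many of the members lie next to each other in the genome, by the gene order of assembly GRCr8. Of 109 members placed there, 47 lay in 18 runs with at most 2 other protein-coding genes between neighbours. The longest runs held 6 genes each. One joins Il1r2, Il1r1, Il1rl2, Il1rl1, Il18r1 and Il18rap, whose differences ran from -0.32 for Il1r2 to 0.36 for Il1rl1. The other joins the IL-36 genes with Il1rn, of which only Il1rn passed the filter. The run of Il24, Il20, Il19 and Il10 was under the filter throughout, with all 4 differences below 0. Of the 14 runs of 2 genes, 5 had both differences below 0, 2 had both above 0 and 7 had opposite signs. Il17re and Il17rc were both below 0 (-0.37 and -0.096), Tnfsf13 and Tnfsf12 both above it (0.16 and 0.011), and Tnfsf4 and Tnfsf18 on opposite sides (0.19 and -0.12).

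Members of the TNF superfamily with other names included a gene past 1.5-fold. Eda encodes ectodysplasin, a ligand known for the growth of hair, teeth and glands, and had levels of 8.26 and 7.59, 1.60-fold lower on the Mef2d-labelled array (-0.68). Of its receptor genes, Eda2r had levels of 10.26 and 10.41 (0.15), and Edar was under the filter at 4.53 and 4.68. The death receptor gene Fas had levels of 7.74 and 7.68 (-0.060), Ltbr, the lymphotoxin receptor gene, 8.08 and 8.25 (0.17) and Ngfr, a neurotrophin receptor gene, 6.26 and 6.09 (-0.17). The 7 genes of this list past the filter had a median of 0.022, with Eda the only one past 1.5-fold.

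Downstream of these receptors, 31 signal transducers of TNF and IL-1 passed the filter, with a median of -0.029, 12 above 0, 19 below and none past 1.5-fold. Casp8, the caspase that death receptors activate, had levels of 5.77 and 5.33 (-0.44), and Tradd, the adaptor of Tnfrsf1a, levels of 6.81 and 6.60 (-0.20). Fadd, the adaptor that recruits Casp8, had levels of 7.09 and 7.39 (0.31), and the kinase gene Tbk1 levels of 7.63 and 7.99 (0.35). The adaptor and the caspase of the death-inducing complex thus differed in opposite directions.

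Of 14 NF-kB subunits, kinases and inhibitors past the filter, 10 (71.4%) were below 0, beside 51.7% of all genes past it. Their median was -0.10, and none was past 1.5-fold. The lowest were the inhibitor gene Nfkbia at 8.64 and 8.34 (-0.30) and Bcl3 at 6.32 and 6.02 (-0.30). The highest were Rela, a main NF-kB subunit, at 0.083 and the kinase subunit gene Ikbkg at 0.077. JAK, STAT and SOCS genes had a median of 0.020 over 22 genes, 12 above 0 and 10 below, again with none past 1.5-fold. Their extremes were the phosphatase gene Ptpn6 (-0.35) and the feedback inhibitor gene Socs1 (-0.26) on one side, and Socs7 (0.36) and the phosphatase gene Ptpn11 (0.28) on the other. Socs3, the feedback inhibitor of gp130, had levels of 6.14 and 5.91 (-0.23).

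Genes that process cytokines were flat past the filter, with a median of 0.045 over 7 genes, 6 of them above 0. The remaining 1 (14.3%) was below 0, against 51.7% of all genes past the filter. Adam17, the protease that releases TNF from the membrane, had levels of 9.30 and 9.30 (0.009). The related Adam10 had the largest difference past the filter (0.16). The caspase gene Casp4 was at 0.081 and the aminopeptidase gene Erap1, which also trims cytokine receptors, at -0.007. Under the filter were Casp1 (0.13), Nlrp3 (-0.18), Nlrc4 (-0.12) and Aim2 (-0.32). Over all 11 genes matched the median was 0.022.

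Genes known to respond to these cytokines held differences beyond those of the members. Of 24 past the filter, 17 (70.8%) were below 0, with a median of -0.13, and 4 were at least 1.5-fold lower and none higher. Among all genes past the filter, 51.7% were below 0, 0.534% at least 1.5-fold lower and 0.844% at least 1.5-fold higher. The 4 lower genes were Lcn2 (-1.86), an iron-binding acute phase protein, the chemokine gene Ccl20 (-1.20), the secreted phospholipase gene Pla2g2a (-0.82) and the elastase gene Mmp12 (-0.72). Lcn2 had levels of 6.64 and 4.78, the second under the filter level of 4.85, where background weighs on a fold. Past the filter, the largest positive differences were those of Nos2, the inducible nitric oxide synthase (0.15), and the chemokine gene Cxcl11 (0.081). The rest of the list, under the filter, ran from Cfb (-0.22) to Gch1 (0.33). Over all 38 genes matched the median was -0.090. This list was chosen with earlier results of these arrays known, so its direction is not independent evidence.

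**Figure D4:**
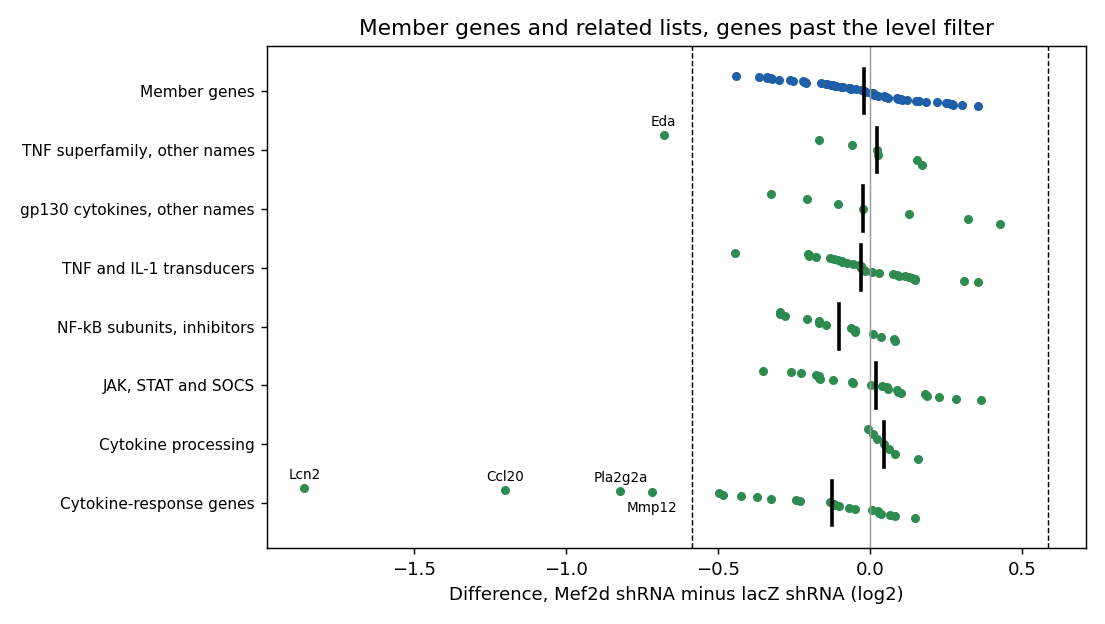
Differences (Mef2d shRNA minus lacZ shRNA, log2) of genes past the level filter, for the 58 member genes in blue and for related lists in green, with a bar at each median and dashed lines at 1.5-fold. The member genes lie within the lines, and Eda, Lcn2, Ccl20, Pla2g2a and Mmp12 lie beyond the lower one.

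Leukocyte markers are set beside these values. Of 16 macrophage and monocyte markers matched, 11 passed the filter and 7 of these were below 0, with a median of -0.11, from Lyz2 (-0.34) and Ptprc (-0.34) to C1qb (0.070) and Tyrobp (0.24). The mean difference of these 11 markers was -0.093. Of 9 T cell markers only Cd4 passed (0.11), and Cd3e was under the filter at 3.69 and 3.54. Over all 9 the median was 0.030, from Lck at -0.21 to Cd28 at 0.54 (4.43 and 4.97), whose mean levels were both under the filter. Among 6 mast cell markers Kit passed (-0.41), and 3 of 5 B cell markers passed, Cd79b (-0.11), Cd79a (0.034) and RGD1565236, the annotation's name for Pax5 (0.035). Of 7 endothelial markers, Flt1 (0.00) and Tek (0.095) passed, with a median of 0.048, and over all 7 the median was -0.18, with Pecam1 at -0.44, Tie1 at -0.26, Emcn at -0.20, Cdh5 at -0.18 and Vwf at 0.038. The median of 6 smooth muscle and pericyte markers was -0.001, from Tagln (-0.22) and Myh11 (-0.21) to Pdgfrb (0.058) and Rgs5 (0.082). No marker in these lists differed by 1.5-fold. The part of leukocytes or endothelial cells in the values of the cytokine and receptor genes was not tested.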

How the data were processed

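RNA of 2 samples was measured on 1-colour Affymetrix arrays, 1 per group, grouped by the shRNA target in the labels. The authors deposited log2 values from RMA in affy 1.36.1, per the submitters' processing notes. No probe set definition or genome build is given in the sources used here. All deposited value columns were used. The platform annotation names 16592 of 19239 probe sets with 1 symbol each and leaves 2647 unnamed. Each member had 1 probe set, and 109 of 110 identifiers were found in the rat reference table (GRCr8), 100 with the same symbol.

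Differences were taken from the values as deposited, with Python 3.11.15, pandas 2.3.3 and numpy 2.4.6. The level filter (30th percentile of the mean), the thresholds of 1.5-fold and 1.3-fold, and the robust standard deviations in 20 level bins are described with the results. The counting was tested on simulated differences. With 1 array per group no test was run, and precision is limited by how few arrays there are. Members, roles and the 15 gene lists were chosen with earlier results of these data known. The genes named were set by rule, taking Tnf, Il6 and Mef2d, the members past 1.3-fold, the 3 extremes of each role in each direction with their ligands or receptors, and in each list the genes past 1.5-fold and the 2 extremes in each direction. The rule also let any other member be named as under the filter or within 1.3-fold, and many were. Nppa, Fas, Edar, Socs3, Cfb, Gch1, Casp1, Nlrp3, Nlrc4, Aim2, Cd3e, Lck, Cd28, Pecam1, Tie1, Emcn, Cdh5 and Vwf were named after their values were seen. Promoter motifs were searched in the first listed RefSeq start of each gene. Other scalings, filters, thresholds and summaries were run as alternatives, including loess curves (statsmodels 0.14.6).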

Additional observations from a re-analysis of the deposited data

How the results depend on the processing

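All alternatives were planned. No member passed 1.5-fold in either direction under the other scalings (median centring, quantile normalization, loess on level), without a level filter, among genes at or above the median level, at 2-fold or beyond 3 robust standard deviations. At 1.3-fold 1 member was lower, and with names added by gene identifier, 1 of 61 members past the filter was at least 1.5-fold higher (Il13ra1-ps1 and Il15ra were added, and Il21r passed the lower filter level that more named genes give). Under the other scalings the 330 differences of single members moved by at most 0.055, and 7 members changed sign, none with a reported difference above 0.041 in size; the median of all genes moved to between -0.0082 and 0.0052. Of 133 list and role medians recomputed, 120 moved by less than 0.05 on the log2 scale. The others moved as follows. Without a level filter the interleukin receptor median was -0.049, the TNF-induced median -0.11, the T cell median 0.030, the endothelial median -0.18 and the mast cell median -0.090. Among genes at or above the median level the interleukin ligand value was -0.14 (1 gene), the TNF-induced median -0.11, the antagonist and decoy median -0.12 (2 genes) and the gp130 median -0.16. With means, the antagonist and decoy value was -0.15, the TNF superfamily list -0.077, the cytokine-response list -0.31 and the gp130 list 0.030. The filters change which genes are counted. With 1 array per group there was no replicate to leave out. No paired analysis was possible because each group has 1 array. Low signal limits the 52 members under the filter.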

Other observations

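The platform annotation leaves unnamed 5 probe sets whose gene identifier has a fitting symbol in the reference table, and these are not among the 110 genes. Il13ra1-ps1, listed there as a pseudogene of the IL-13 receptor chain Il13ra1, had levels of 8.60 and 9.27, 1.59-fold higher on the Mef2d-labelled array and the only value of these families with an interleukin symbol past 1.5-fold. Signal of a pseudogene and of its parent gene cannot be told apart here. No probe set carried the symbol Il13ra1, either in the platform annotation or among the names added by gene identifier. Il15ra, the chain that presents IL-15, had levels of 6.31 and 6.21 (-0.096). Il17a (4.25 and 4.21), Il31 (3.91 and 3.52) and Il4i1 (4.34 and 4.40), an enzyme that degrades amino acids, lay under the level filter.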
